A study of Mus musculus with 13 samples.

Results

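Hematopoietic stem cells (HSCs) of untreated mice were compared between MEK1-deficient (KO) and wild-type (WT) animals, across all genes, in the 6 libraries of untreated cells among the 13 of the study. KO HSCs held more transcripts of Cdc20 and Bub1, which act at the metaphase-to-anaphase step of mitosis, at 3.52 and 7.01 times the WT mean. Of 151 tested mitosis genes, 127 (84.1%) lay above WT, against 50.4% of all tested genes. With WT library D3 left out, 113 did so. The little-studied gene Ribc1 was also higher, and Nsun7, a member of the Nsun RNA methyltransferase family, was lower at 2.26% of the WT mean. These 4 genes were the ones that passed the test among 12846, and 0 passed when the 6 untreated libraries were fitted alone. Most of what follows therefore describes levels and directions of genes that did not pass.

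MEK1, encoded by Map2k1, is a dual-specificity kinase that is phosphorylated by RAF kinases and in turn phosphorylates the ERK kinases. Its close relative MEK2, encoded by Map2k2, catalyses the same step. ERK signalling is switched on by cytokines and growth factors, drives immediate-early transcription and cell cycle entry, and limits itself through feedback inhibitors such as the Spred and Sprouty proteins. Adult HSCs are mostly quiescent and divide rarely, and division of the stem cell pool rises when the marrow is depleted.

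Each library was made by Smart-seq2 from 100 HSCs sorted from bone marrow. The untreated groups were WT (libraries D1, D2 and D3) and KO (D4, D5 and D6), all with an acquisition year of 2015. The series also has HSCs taken after 5-fluorouracil (5-FU), with 4 WT (A2, A3, A4, D4) and 3 KO (A5, A6, A8) libraries. 5-FU is an antimetabolite that kills dividing cells. Those carry the year 2016, except WT D4 with 2015. The labels give the genotype as MEK1-deficient and name neither the allele nor a Cre line, nor the age or sex of the mice, and they do not say whether each library came from a separate animal. The series description lists 3 WT samples with 1 technical addition, and which reads that addition holds is not stated. P-values therefore cover only library-to-library spread, part or all of which may be technical.

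Recovered reads (see the description of processing) numbered 14232268 to 45384866 in the WT and 15544452 to 19942527 in the KO libraries. WT D1 was the deepest and is the one library labelled with both flowcells. Genes with at least 1 read numbered 12145 to 12569 in WT and 12223 to 12282 in KO. Across genes, pairs of KO libraries correlated at 0.940 to 0.943 (Pearson's r), pairs of WT libraries at 0.912 to 0.925, and pairs of unlike genotype at 0.914 to 0.936, so the WT libraries resembled each other less than the KO libraries did. The WT libraries A3 and D4 of the 5-FU cells were much more alike than other pairs, and averaging them into 1 library left Cdc20 and Nsun7 as the called genes. All 12 listed HSC markers were detected, with a summed normalized count of 26752 to 32542 in WT and 23498 to 26397 in KO, so the KO sums lay below the WT sums. Normalized counts here are reads divided by the authors' size factors. Of markers of other cells, the summed count of 15 megakaryocyte and platelet genes was 10339 to 11995 in WT and 10929.7 to 13671 in KO. The 9 monocyte, macrophage and dendritic genes summed to 17690.3 to 21436 in WT and 16010.5 to 17997 in KO, nearly all of it Lyz2, with Fcgr1 at 0 in all 6 libraries. The 5 T and NK cell genes with values summed to 2939.6 to 5297 in WT and 2274 to 4139 in KO, and the 9 neutrophil genes to 4940.2 to 5633 and 4855 to 5483. The 5 endothelial and stromal genes summed to 1628 to 1905 in WT and 1259.9 to 1579 in KO, without overlap. The 4 mast cell, basophil and eosinophil genes summed to 1385 in WT D1 and to 172 to 335 in the other 5 libraries. B cell sums (982 to 2328 and 1247 to 1668) and erythroid sums (48076 to 71479 and 57316 to 72998, mostly Car2) overlapped. The part of such differences in the results was not tested.

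Map2k1 (ENSMUSG00000004936, chromosome 9, 64185770 to 64253631, minus strand) was measured first, since it checks the genotype labels. The WT libraries D1 to D3 held normalized counts of 905, 1116 and 1766, against 611, 749.8 and 545 for the KO libraries D4 to D6. Every KO library lay below every WT library, yet KO libraries kept 50.3% of the WT mean. The difference was -0.69 on the deposited log2 scale (SE 0.30, 95% interval -1.31 to -0.06, adjusted p = 0.46 by limma with Benjamini-Hochberg adjustment). An exact two-sided permutation test over the 6 libraries gave p = 0.1, the smallest that 3 against 3 allows. Which exons the allele removes is not given in the sources used here, so reads from an altered transcript and reads from residual intact transcript cannot be told apart. In bulk samples, fewer cells with a transcript and less of it per cell cannot be told apart either, here and in every result below.

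Map2k2, the other MEK gene, was at 784, 971 and 1296 in WT but at 1421, 1307 and 1336 in KO. All KO libraries lay above the WT libraries, with a log2 difference of 0.34 (95% interval -0.11 to 0.78, adjusted p = 0.635), which did not pass. The ERK gene Mapk3 differed by -0.28 (95% interval -0.95 to 0.39), with overlapping groups. The RAF genes Araf and Braf differed by -0.05 and 0.05. Upstream of RAF, the adaptor Grb2 was at 1141, 582 and 762 in WT and at 369, 451 and 475 in KO, a difference of -0.59 with an adjusted p of 0.363. Hras was at 516, 428 and 312 in WT and at 134, 232 and 248 in KO (-0.54, adjusted p = 0.434), whereas Nras was at 1455, 924 and 1698 in WT and at 2364, 1812 and 1878 in KO (0.49, adjusted p = 0.528). The 3 RAS pathway genes did not overlap between genotypes, and none passed. Of 25 tested genes of the RAF-MEK-ERK cascade, 0 were called, and 12 lay above and 13 below WT. An unadjusted p below 0.05 was reached by 0 on the higher and 4 on the lower side, against 5.37% and 4.68% of all tested genes. The 4 include Map2k1 itself, the gene that defines the genotypes. Over left-out libraries the 4 ran from 1 (without WT D1 or KO D4) to 4, and the 0 reached 2 without WT D3. The median difference was -0.02 (0.01 without WT D1 or KO D5) against 0.00 for all tested genes.

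Genes that ERK switches on, or that feed back on it, lay on both sides of WT, and none passed. Spred1, a membrane inhibitor of RAS-to-RAF signalling, was at 895, 857 and 1008 in WT but at 243, 405 and 361 in KO. Its groups lay far apart, with KO at 36.6% of the WT mean (log2 difference -0.94, SE 0.23, adjusted p = 0.169). The immediate-early transcription factor Egr1 was at 992, 744 and 736 in WT and at 656, 294 and 264 in KO (-0.70, adjusted p = 0.382). Srf, the serum response factor that binds immediate-early promoters, was at 182, 400.5 and 264 in WT and at 47.0, 162 and 84.6 in KO (-0.64, adjusted p = 0.49). Fos was at 3896, 1343 and 2403 in WT and at 1867, 1355 and 644 in KO, with overlapping groups (-0.80, adjusted p = 0.479). Ccnd1, the D-type cyclin that ERK induces, went the other way, at 69.2, 284 and 206 in WT and 553, 280.4 and 398 in KO (0.61, adjusted p = 0.415). Of 32 tested ERK feedback inhibitors and targets, 0 were called, 14 lay above and 18 below WT, and 1 had an unadjusted p below 0.05 on the higher and 5 on the lower side (3.12% and 15.6%). Over left-out libraries the first ran from 0 (without WT D1 or KO D4) to 2 (without WT D2), and the second from 1 (without KO D6) to 4. The median was -0.02 (0.07 without WT D1, -0.21 by limma-voom on the recovered reads).

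Cdc20 (ENSMUSG00000006398, chromosome 4, 118432901 to 118437352, minus strand) encodes the co-activator that directs the anaphase-promoting complex to securin and cyclin B. It was at 1215, 939.9 and 819 in WT and at 3999.8, 3062 and 3419 in KO, as the plot of counts by library shows. The groups were far apart, and the lowest KO library was well above the highest WT library. The mean rose from 991 ± 203 to 3493 ± 473 (SD, n = 3 each), a log2 difference of 1.51 (SE 0.20, adjusted p = 0.0121 by limma with Benjamini-Hochberg adjustment). It was called under 15 of 18 alternative settings, counting each untreated library left out. The direction was the same in all 18, which the gap between the groups made near certain beforehand.

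Bub1 (ENSMUSG00000027379, chromosome 2, 127801122 to 127831865, minus strand) encodes a kinetochore kinase of the spindle checkpoint, which holds Cdc20 in check until chromosomes are attached. It was at 288, 77.6 and 11.6 in WT but at 1101, 639 and 906 in KO. WT varied widely, from the low D3 to D1, but stayed below the lowest KO library. The mean was 126 ± 145 in WT and 882 ± 232 in KO, a log2 difference of 1.66 (SE 0.26, adjusted p = 0.0385), called under 8 of 18 alternatives. Among the relatives of both genes, Bub1b, the checkpoint pseudokinase BubR1, was at 537, 625 and 247 in WT and 1418, 1284 and 1356 in KO (1.11, adjusted p = 0.131). Bub3, the partner of both Bub kinases, differed by 0.29 (95% interval -0.03 to 0.62), and Fzr1, which replaces Cdc20 on the anaphase-promoting complex in late mitosis and G1, by -0.06 (95% interval -0.53 to 0.41).

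**Figure D1:**
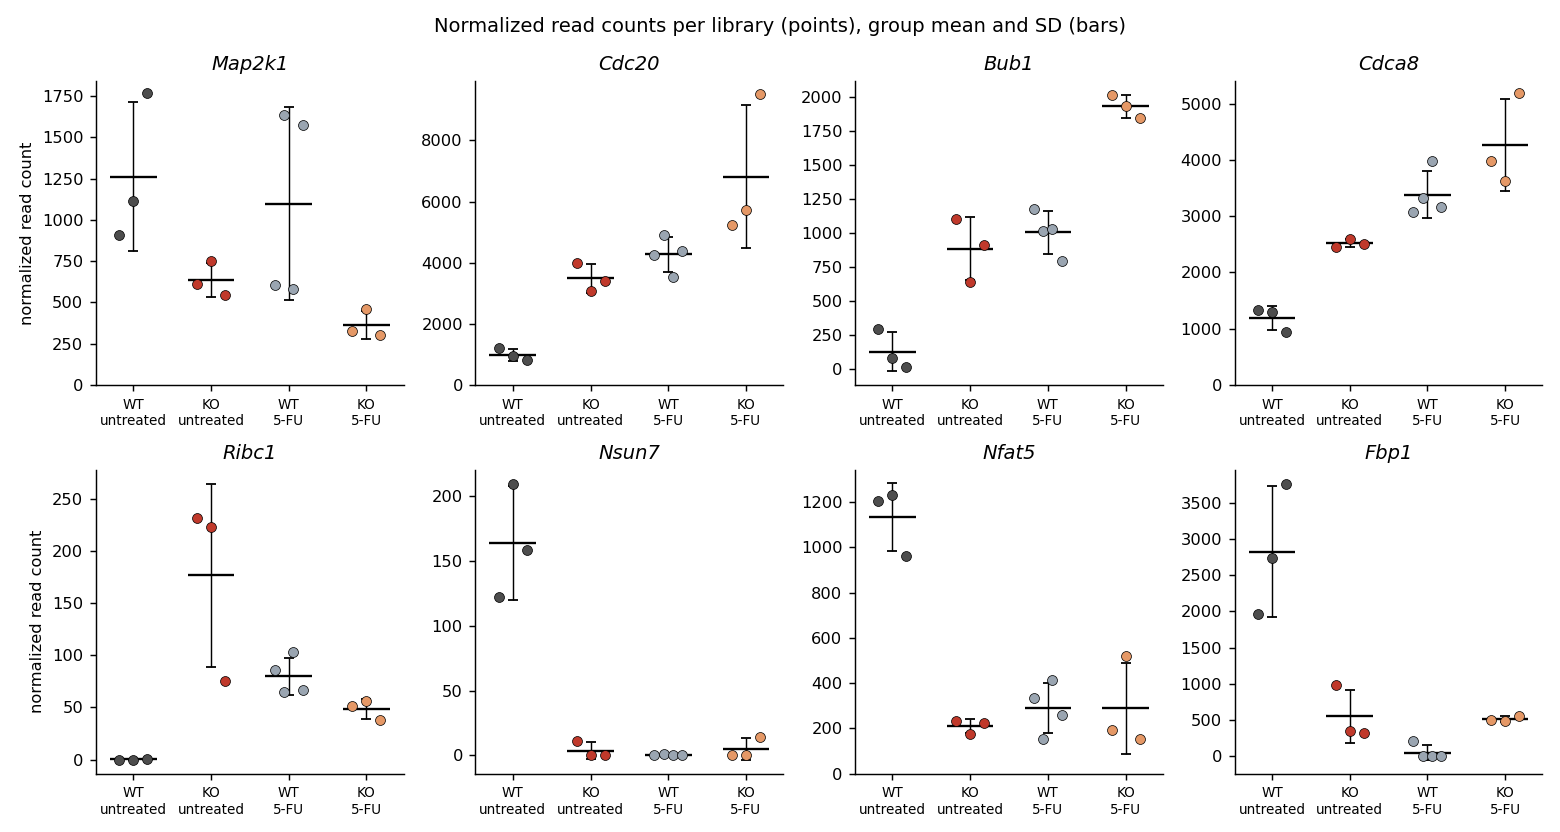
Normalized read count of 8 genes in each library (points), by genotype and treatment, with the group mean (line) and SD (bar). Cdc20 and Bub1 are above WT in all 3 untreated KO libraries, Nsun7 is at 0 to 11.1 in them against 122 to 209.5 in WT, and Fbp1 is lower in untreated KO but higher in KO after 5-FU.

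Promoters of G2 and mitosis genes commonly hold a cell cycle homology region (CHR, TTTGAA or TTCGAA), which binds the MuvB complexes that repress them in quiescence and switch them on with B-MYB and FOXM1 in G2, and a CCAAT box, which binds NF-Y. The sequences below are shown because Cdc20 and Bub1 are the mitosis genes that passed the test, and Cdca8 and Kpna2 are, with Cdc25c, mitosis genes among the 12 leading ones. Each runs from 150 bases before to 30 bases after the RefSeq start site, in the direction of the gene (RefSeq, GRCm38.p6, minus strand in all 4), with CHR and CCAAT letters on either strand in capitals. They lie at chr4:118437314-118437493, chr2:127831830-127832009, chr4:124936888-124937067 and chr11:106999496-106999675, in that order.
Cdc20: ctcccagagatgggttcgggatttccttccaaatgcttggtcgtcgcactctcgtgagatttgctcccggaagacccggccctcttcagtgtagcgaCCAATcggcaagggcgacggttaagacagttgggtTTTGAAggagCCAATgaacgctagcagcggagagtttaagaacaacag
Bub1: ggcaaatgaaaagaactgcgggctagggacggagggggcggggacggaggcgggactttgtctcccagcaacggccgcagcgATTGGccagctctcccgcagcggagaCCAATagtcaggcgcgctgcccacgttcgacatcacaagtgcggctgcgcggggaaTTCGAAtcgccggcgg
Cdca8: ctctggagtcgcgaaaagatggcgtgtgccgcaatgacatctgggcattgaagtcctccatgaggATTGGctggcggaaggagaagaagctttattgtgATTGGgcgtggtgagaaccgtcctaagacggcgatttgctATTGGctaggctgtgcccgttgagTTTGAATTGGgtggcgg
Kpna2: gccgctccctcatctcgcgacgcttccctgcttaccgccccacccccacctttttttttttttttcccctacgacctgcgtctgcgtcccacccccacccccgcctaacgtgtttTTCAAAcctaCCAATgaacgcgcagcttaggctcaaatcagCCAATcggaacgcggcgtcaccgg

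All 4 sequences held both kinds of motif within these windows. In Cdc20 the TTTGAA began 18 bases before the start site, between CCAAT boxes at 53 and 8 bases before it. In Bub1 the TTCGAA, which reads the same on both strands, began at base 15 of the transcript. In Cdca8 the TTTGAA began at base 14 and shared its last base with a CCAAT box on the opposite strand. In Kpna2 the CHR was on the opposite strand, 35 bases before the start site. Over the window from 250 bases before to 50 bases after the start, with the first promoter listed per gene, either CHR was found in 19.4% of all 27025 promoters, in 14.2% of those of 9505 tested genes, and in 57.9% of those of 126 mitosis genes with a promoter in the table. CCAAT was found in 37.9%, 39.2% and 61.9% of the same sets, and both together in 7.7%, 6.17% and 43.7%. A match of letters is a description and does not show binding.

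The mitosis genes were read as 5 lists with 151 tested members. The 2 called members, Cdc20 and Bub1, stand against a background of 0.0234% of all 12846 tested genes called higher and 0.00778% called lower (0.0311% in both directions). A further view, at the level of single genes that did not pass, is the unadjusted p below 0.05: 46 of the 151 (30.5%) on the higher and 1 on the lower side, against 5.37% and 4.68% of all genes. All 3 KO libraries lay above all 3 WT libraries for 39 of the 151 (25.8%) and below for 0, against 5.88% and 5.67% of all genes. Positive differences numbered 127 (84.1%) and negative ones 24, against 50.4% and 49.6% of all genes, and the median was 0.37 against 0.00. The count of 46 became 62 without WT D1, 57 without WT D2 and 27 without WT D3, with medians of 0.43, 0.41 and 0.21. WT D3 was thus the library that moved the lists most.

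Mitotic cyclins, kinases and the chromosomal passenger complex had 28 of 29 members above WT, a median of 0.51 (0.31 without WT D3) and 0 called. All KO libraries lay above all WT libraries for 12 members (41.4%, against 5.88% of all genes). Cdca8, the passenger complex subunit borealin, was at 1325, 1296 and 938 in WT and at 2455, 2598 and 2507 in KO (0.91, SE 0.17, adjusted p = 0.0644). The KO libraries were nearly equal and far above WT. Cdc25c, the phosphatase that activates CDK1, was at 16.98, 27.8 and 1.06 in WT and at 395, 406 and 369 in KO, a ratio of means of 25.5 (1.505, SE 0.30, adjusted p = 0.0891). Ccna2, cyclin A2, was at 805, 1798 and 608 in WT and at 2975, 1867 and 2768 in KO (1.09, adjusted p = 0.149), and only WT D2 came near the KO range. Polo-like kinase Plk1 was at 1.63, 750.1 and 3.17 in WT and at 1086, 878 and 916 in KO (1.78, SE 0.42, adjusted p = 0.159). It was near 0 in WT D1 and D3 although D1 was the deepest library. Ccnb2, cyclin B2, was at 2939, 2709.7 and 1368 in WT and at 4752, 4466 and 4348 in KO (0.91, adjusted p = 0.162). Aurkb, the Aurora B kinase, was at 1159, 2085 and 664 in WT and at 2407, 2971 and 2155 in KO (0.87, adjusted p = 0.212).

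Spindle motors and cytokinesis genes had 30 of 34 members above WT, a median of 0.54 (0.27 without WT D3) and 0 called. On the higher side, 10 members were without overlap (29.4%, against 5.88% of all genes). Kif22, a chromokinesin that pushes chromosome arms, was at 1231, 796 and 458 in WT and at 3369, 2076 and 2236 in KO (1.33, adjusted p = 0.117). Kpna2, an importin alpha that carries spindle assembly factors, was at 2176, 2537 and 1321 in WT and at 4705, 4198 and 4326 in KO (1.04, adjusted p = 0.0836). Both genes were separated by a wide gap between genotypes. Prc1, which bundles midzone microtubules, was at 225, 566 and 334 in WT and at 874, 828 and 977 in KO (0.85, adjusted p = 0.193). Cep55, an abscission scaffold, was at 31.3, 140.1 and 89.8 in WT and at 393, 459 and 399 in KO (1.03, adjusted p = 0.234). Racgap1, of the centralspindlin complex, was at 248, 1794 and 1163 in WT and at 2578, 2049 and 2208 in KO (1.09, adjusted p = 0.242), with WT D1 far below the other WT libraries.

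Centromere and kinetochore genes had 32 of 39 members above WT, with a median of 0.37 and 0 called. Spc25, of the NDC80 complex, was at 806, 1052 and 747 in WT and at 1542, 2024 and 1419.5 in KO (0.72, adjusted p = 0.299), without overlap. The kinetochore motor gene Cenpe was at 722, 273 and 274 in WT and at 1222, 1081 and 583 in KO, where KO D6 fell within the WT range (0.81, adjusted p = 0.268). The checkpoint and anaphase-promoting complex list had 23 of 29 members above WT and a median of 0.29. Ttk, the checkpoint kinase MPS1, was at 377, 387 and 1.06 in WT and at 509, 761 and 891 in KO (1.13, adjusted p = 0.3). Espl1, the protease separase that cleaves cohesin at anaphase, was at 24.5, 162 and 31.7 in WT and at 229, 281 and 331 in KO (0.83, adjusted p = 0.233). Condensin, cohesin and topoisomerase genes were closer to the background, with 14 of 20 members above WT and a median of 0.12 that became -0.07 without WT D3 and -0.01 without KO D5. Its member Cdca5, or sororin, which stabilises cohesin, was at 720.2, 1144 and 380.3 in WT and at 2562, 1186 and 2011 in KO (1.07, adjusted p = 0.173).

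**Figure D2:**
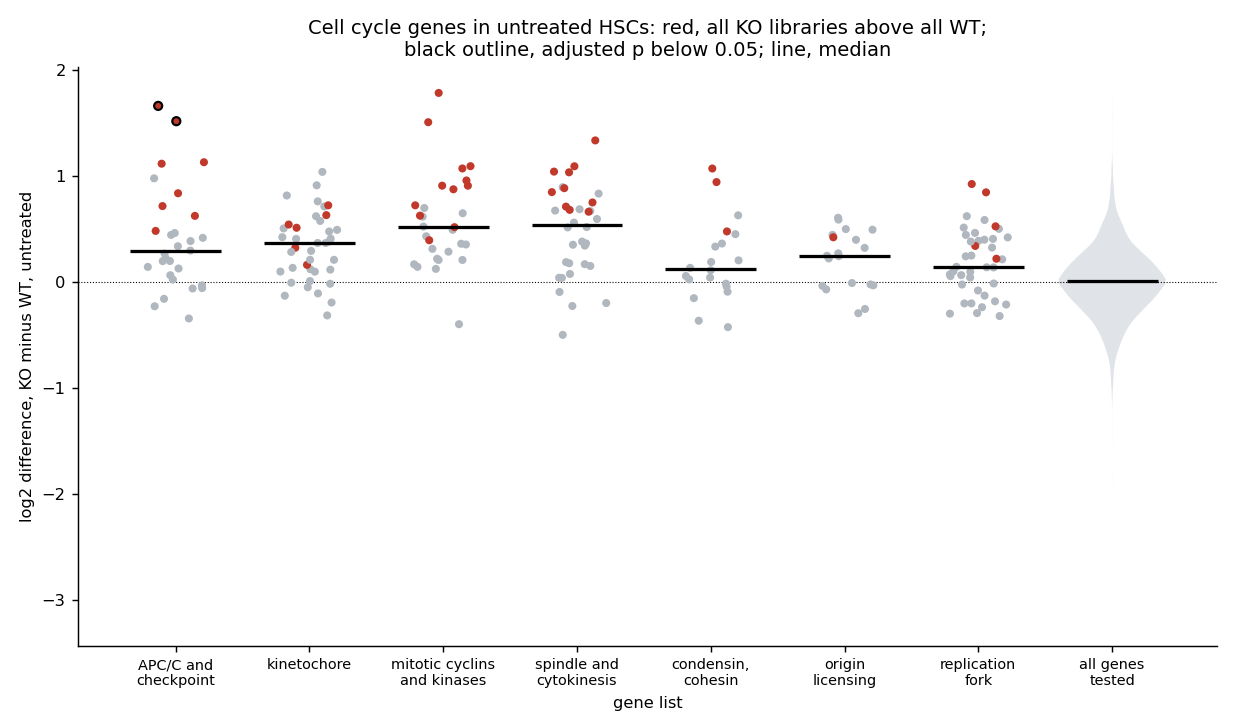
Log2 difference (KO minus WT, untreated) of every tested member of 5 mitosis lists and 2 replication lists (points), with the list median (line) and the distribution of all 12846 tested genes (violin). Red points are genes with all KO above all WT libraries and the 2 black outlines are Cdc20 and Bub1, while the medians run from 0.12 to 0.54 against 0.00 for all genes.

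The lists were next averaged within each library, as the mean log2 level of the 151 genes relative to the mean of the 6 libraries. WT D1 to D3 gave -0.03, -0.12 and -0.46, and KO D4 to D6 gave 0.27, 0.20 and 0.13. The genotypes did not overlap, and WT D3 lay furthest from the rest. WT libraries spread more (SD 0.225, n = 3) than KO libraries (SD 0.0696, n = 3). Genes with at most 3 reads numbered 3, 1 and 12 of the 151 for WT D1 to D3, against 2, 1 and 2 for the KO libraries. Over all 12846 tested genes, the same count was 710, 1135 and 1154 in WT and 956, 1002 and 1024 in KO.

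**Figure D3:**
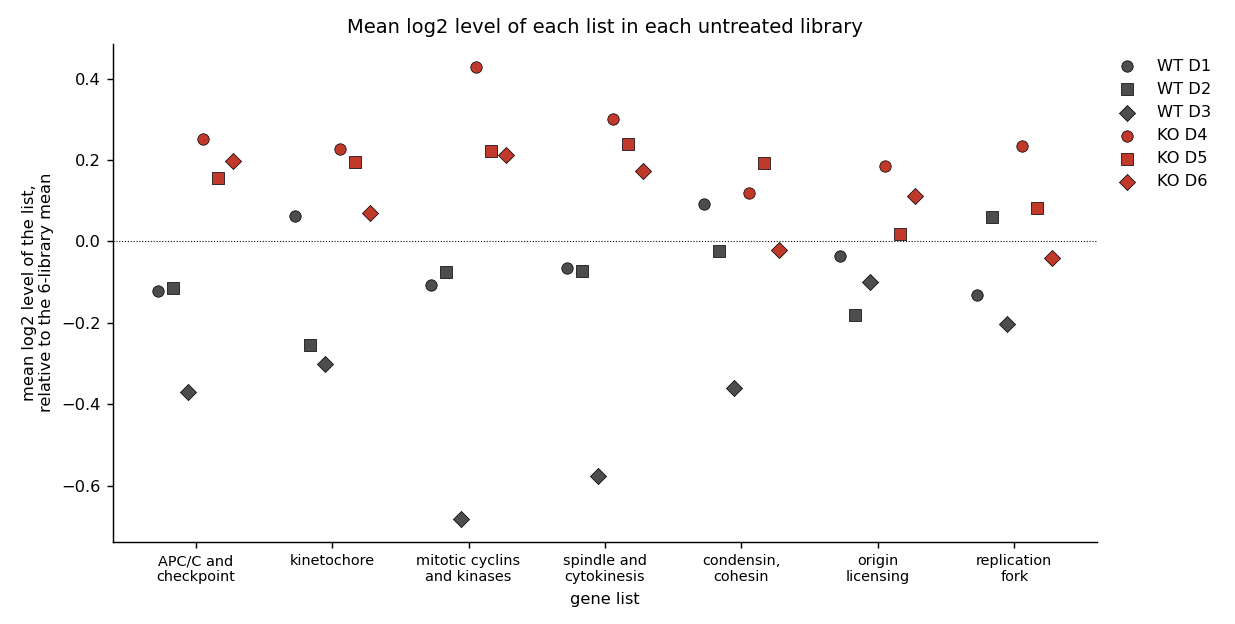
Mean log2 level of each cell cycle list in each untreated library, relative to the mean of the 6 libraries (WT grey, KO red). For mitotic cyclins and kinases WT D3 is at -0.68 and the KO libraries at 0.21 to 0.43, whereas WT and KO overlap for condensin and cohesin and for the replication fork.

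DNA replication genes differed less. Of 60 tested origin licensing and replication fork genes, 0 were called, 41 lay above WT, 7 had an unadjusted p below 0.05 on the higher side (11.7%) and 0 on the lower side, and the median was 0.22. The 7 became 3 without KO D4 and 14 without WT D2, and the median 0.13 without WT D3. Mcm2, of the replicative helicase, was at 2356, 1632 and 1534 in WT and at 3939, 2196 and 2928 in KO (0.60, adjusted p = 0.321), with an overlap through WT D1. Exo1, a 5′ exonuclease, was at 461, 535 and 999 in WT and at 1380.0, 1667 and 1496 in KO (0.92, adjusted p = 0.218). Lig1, the ligase that joins Okazaki fragments, was at 932, 1006 and 506 in WT and at 2749, 1054 and 1612 in KO (0.84, adjusted p = 0.291). Both genes were without overlap, Lig1 only narrowly. Of 28 G1 cyclins, E2F factors and CDK inhibitors, 17 lay above WT, with a median of 0.10 (0.06 without KO D4) and 0 called. Ccne2, cyclin E2, was at 674, 450.3 and 259.8 in WT and at 754, 952 and 1185 in KO (0.74, adjusted p = 0.288). Of 40 DNA repair genes, 30 lay above WT, with a median of 0.23 and 0 called. Xrcc5, the Ku80 subunit of end joining, was at 1092, 1056 and 784 in WT and at 1684, 2571 and 2471 in KO (0.95, adjusted p = 0.11).

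Ribc1 (ENSMUSG00000025257, X chromosome, 152004582 to 152016295, minus strand) encodes a protein with a RIB43A domain, a family found in the microtubules of cilia and flagella. It had no read in WT D1 and D2, 1.06 normalized counts (1 read) in WT D3, and 231, 223 and 75.1 in KO. The gene was present in every KO library and nearly without reads in WT, with a log2 difference of 1.16 (SE 0.19, adjusted p = 0.0408). The deposited scale compresses low counts, so this difference is smaller than the ratio of the counts. After 5-FU it was detected in both genotypes, at 65.2 to 103 in WT and 37.7 to 56.6 in KO.

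The other leading genes on the higher side, chosen as the 12 with the smallest p, a group mean of at least 50 and no overlap, did not pass. Slc25a29, a mitochondrial carrier of basic amino acids, had 0 reads in every WT library and was at 82.9, 123 and 89.9 in KO. With 3 reads per library as the floor, it was at least 28.4-fold higher in KO (log2 difference 0.89, adjusted p = 0.0644). Fhl2, a LIM-domain cofactor of transcription, likewise had 0 reads in WT and was at 95.8, 44.2 and 128 in KO, at least 25.7-fold higher (0.83, adjusted p = 0.0836). These 2 genes gave no read in any WT library and were present in all 3 KO libraries. Pkm, the pyruvate kinase of glycolysis, was at 3722, 3959.8 and 4979 in WT and at 8450.1, 7021 and 6941 in KO (0.77, adjusted p = 0.0836). Ifrd2, an interferon-related developmental regulator that associates with ribosomes, was at 492, 531 and 494 in WT and at 1200.3, 1172 and 1664 in KO (0.99, adjusted p = 0.0748). Pank1, a pantothenate kinase that starts coenzyme A synthesis, was at 96.6, 98.4 and 52.8 in WT and at 409, 414 and 342 in KO (0.97, adjusted p = 0.103). Xlr3a, of the X-linked lymphocyte regulated family, was at 0.979, 5.79 and 0 in WT and at 37.8, 104 and 166 in KO (0.81, adjusted p = 0.0971). Its value is uncertain because near-identical copies can share reads, which was not tested here.

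Nsun7 (ENSMUSG00000029206, chromosome 5, 66259897 to 66298026, plus strand) was the one called gene on the lower side. It was at 122, 209.5 and 158 in WT and at 11.1, 0 and 0 in KO. The mean fell from 163 ± 43.9 to 3.68 ± 6.38 (SD, n = 3 each), a log2 difference of -1.07 (SE 0.15, adjusted p = 0.0175), called under 11 of 18 alternatives. Of the list of 8 tested genes for RNA cytosine methyltransferases, which holds Trdmt1 beside the Nsun family, the other 7 did not pass. Nsun2, the methyltransferase of many tRNAs, differed by 0.25 (95% interval -0.08 to 0.59), and Nop2, which acts on 28S rRNA, by 0.48 (95% interval -0.05 to 1.00). After 5-FU, Nsun7 was at 0 to 1.45 in WT and 0 to 14.3 in KO, so the gene was near 0 outside untreated WT cells.

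Other leading genes on the lower side did not pass. Edar, the ectodysplasin receptor, was at 116, 150.5 and 109.9 in WT and at 0, 7.36 and 12.7 in KO (-0.86, SE 0.15, adjusted p = 0.0512). Nfat5, the transcription factor of the osmotic stress response, was at 1205, 1234 and 960.2 in WT and at 235, 177 and 224 in KO (-1.48, SE 0.26, adjusted p = 0.0512). The WT mean of Nfat5 was 5.34 times the KO mean, with tight groups on both sides. Fbp1, the gluconeogenic fructose bisphosphatase, was at 1966, 2739.8 and 3764 in WT and at 979, 356 and 326 in KO (-1.86, SE 0.34, adjusted p = 0.0644). Myo1e, a class I myosin of membrane and actin dynamics, was at 114, 193 and 274 in WT and at 17.5, 0 and 0 in KO (-1.14, adjusted p = 0.0836). The zinc finger gene Zfp532 was at 367, 236 and 210.2 in WT and at 0, 54.8 and 40.2 in KO (-1.08, adjusted p = 0.0971). Ahcyl1, a regulator of inositol trisphosphate receptors, was at 1548, 2001 and 1726 in WT and at 824, 994 and 916 in KO (-0.74, adjusted p = 0.141). The nuclear receptor gene Nr2c2 was at 1505, 1382 and 1091 in WT and at 466, 638 and 397 in KO (-0.999, adjusted p = 0.139).

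The remaining 4 were scarcer. Gpt2, the mitochondrial alanine transaminase, was at 49.3, 194 and 53.9 in WT and 0 in all KO libraries, at least 31.3-fold lower in KO with the 3-read floor (-0.85, adjusted p = 0.131). Zan, zonadhesin, was at 49.95, 33.6 and 82.4 in WT and 0 in all KO libraries, at least 17.4-fold lower (-0.64, adjusted p = 0.131). C1qc, a complement C1q chain made by macrophages, was at 201, 118 and 50.7 in WT and at 0, 0 and 1.06 in KO (-0.95, adjusted p = 0.132). The summed monocyte, macrophage and dendritic markers given above, nearly all Lyz2, overlapped between the genotypes. All 8 tested markers of that list had negative differences, though Fcgr1 among them had no reads in any untreated library. Their part in the C1qc difference was not tested. Gm16580, annotated as a processed pseudogene, was at 236, 219 and 126 in WT and at 5.53, 34.3 and 5.29 in KO (-0.98, adjusted p = 0.131). Reads from its parent gene could set this value, which was not tested.

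Stem cell identity genes lay on both sides of WT, and none passed. Of 31 tested HSC transcription factors, 0 were called and 20 lay below WT, with a median of -0.16 that became -0.02 without WT D1 and -0.06 without WT D3. All KO libraries lay below all WT libraries for 7 (22.6%, against 5.67% of all genes) and above for 1 (3.23%, against 5.88%). An unadjusted p below 0.05 was reached by 0 on the higher and 2 on the lower side (6.45%, against 4.68%). Zfp532, described above as a leading gene of this same comparison, counts among both the 7 and the 2. The list was chosen with earlier results of these data known, so these shares are not independent of that ranking. Hlf, a factor that marks and maintains HSCs, was at 3171, 2357 and 3432 in WT and at 1428, 1887 and 1691 in KO (-0.71, adjusted p = 0.321), without overlap. Runx1 was at 1543, 1355 and 1662 in WT and at 1224, 1082 and 1011 in KO (-0.36, adjusted p = 0.511). Of 27 HSC surface and reporter markers, 0 were called, with a median of 0.09 (0.19 without KO D4). An unadjusted p below 0.05 was reached by 5 on the higher side (18.5%, against 5.37% of all genes) and 0 on the lower. The 5 became 2 without KO D6. Members without overlap numbered 3 on the higher and 3 on the lower side (11.1% each, against 5.88% and 5.67% of all genes). Cd82, a tetraspanin linked to HSC quiescence, was at 115, 166 and 175 in WT and at 321, 397 and 327 in KO (0.57, adjusted p = 0.321). Vwf, a marker of platelet-biased HSCs, was at 211, 182 and 379 in WT and at 370.3, 742 and 446 in KO, with overlapping groups (0.56, adjusted p = 0.494). Of 15 megakaryocyte and platelet genes, 0 were called and the median was -0.03. Its members with the smallest p were F2rl2, or PAR3 (0.91, adjusted p = 0.242), and Selp, or P-selectin (0.83, adjusted p = 0.294).

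Lists of signalling and quiescence genes followed, to be read beside the 49.6% of all tested genes that lay below WT. Of 23 TGF-beta, SMAD and Id genes, 18 lay below WT, with a median of -0.26 (-0.16 without WT D1) and 0 called. Ski, a repressor that binds SMAD proteins, was at 689, 1166 and 887 in WT and at 471, 142 and 424 in KO (-0.94, adjusted p = 0.282). Of 31 interferon response genes, 23 lay below WT, with a median of -0.16 (-0.10 without WT D3, -0.25 without WT D2) and 0 called. The paralogues Mx1 and Mx2 went opposite ways: Mx1 was at 104, 200.2 and 25.4 in WT and at 1.84, 45.8 and 5.29 in KO (-0.61, adjusted p = 0.318), and Mx2 at 0, 1.16 and 14.8 in WT and at 74.6, 364 and 129 in KO (1.06, adjusted p = 0.175). Reads of 2 such similar genes can be split between them by the counting, which was not tested here. Of 28 FoxO and quiescence-linked genes, 21 lay below WT, with a median of -0.11 and 0 called. That median was -0.02 without WT D3 and -0.21 without WT D2. Bcl2l11, the pro-apoptotic FoxO target BIM, was at 155, 140.1 and 143 in WT and at 93.0, 6.54 and 0 in KO (-0.75, adjusted p = 0.318). Of 29 genes of the PI3K-AKT-mTOR pathway, 17 lay below WT, with a median of -0.08 and 0 called. It was -0.0094 without WT D1, -0.19 without WT D2 and -0.36 by limma-voom. Among 28 adhesion and homing genes the median of -0.06 changed sign when single libraries were left out. Beside receptors, the list holds Myo1e (described above), Myo1f, Rac1, Rac2, Rhoa and Cdc42. Its member Itgb1, the beta chain of VLA integrins, was at 2586, 2741 and 2526 in WT and at 1849.8, 2067 and 2018 in KO (-0.35, adjusted p = 0.481).

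Metabolic and ribosomal lists were described next, to be read beside the 50.4% of all tested genes that lay above WT. Of 46 nuclear genes of oxidative phosphorylation, 39 lay above WT, 8 without overlap (17.4%, against 5.88% of all genes), with a median of 0.14 and 0 called. An unadjusted p below 0.05 on the higher side was reached by 2 (4.35%), below the 5.37% of all genes. The median was 0.08 without KO D5. The 13 mitochondrially encoded genes had a median of -0.13 with 10 below WT, and it ran from -0.25 to -0.04 over left-out libraries. Of 49 cytosolic ribosomal protein genes, 42 lay above WT, 11 without overlap (22.4%), with a median of 0.13 that became 0.03 without WT D1. On the higher side 2 of them (4.08%, also below 5.37%) had an unadjusted p below 0.05, and 0 without WT D1. Of 43 ribosome biogenesis genes, 34 lay above WT with a median of 0.19 (0.10 without WT D1), and Nolc1, a nucleolar chaperone of box C/D and H/ACA particles, was at 1315, 1183 and 1397 in WT and at 2170.3, 2309 and 1710.4 in KO (0.54, adjusted p = 0.229). Of 29 genes of the TCA cycle and fatty acid oxidation, 21 lay above WT with a median of 0.14 (0.05 without WT D1) and 0 called. Of 26 glycolysis and gluconeogenesis genes, 17 lay above WT with a median of 0.14 (0.26 without WT D2). Pkm and Fbp1, of opposite pathways, are members and are described above. Heat shock and chaperone genes had 15 of 20 members above WT and a median of 0.18 (0.11 without WT D1, 0.28 without WT D2). The 11 osmotic stress genes, with Nfat5 among them, had a median of -0.08 (-0.26 without KO D6). In 9 further lists with 229 tested members, 0 were called and medians ran from -0.04 to 0.15.

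**Figure D4:**
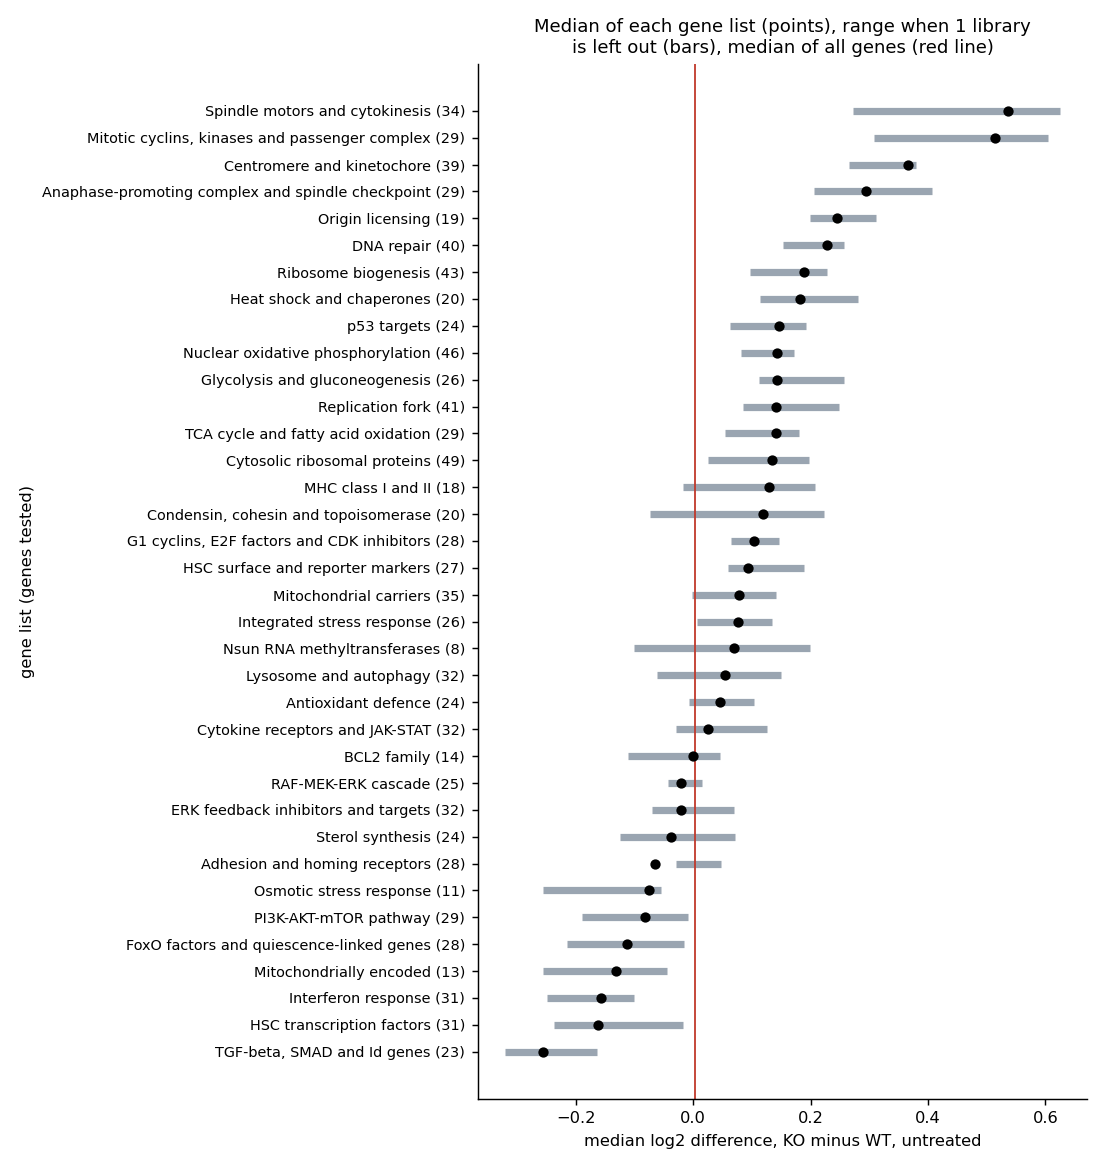
Median log2 difference (KO minus WT, untreated) of 36 gene lists (points), the range of that median when 1 of the 6 libraries is left out (bars) and the median of all genes (red line). The 4 largest medians, 0.29 to 0.54, belong to mitosis lists, and the lowest, -0.26, to TGF-beta, SMAD and Id genes.

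The 7 libraries after 5-FU give the same genotype contrast. They entered the shared spread and the filter by which the leading genes were ranked, but not the untreated difference. After 5-FU, 5.36% of tested genes were called higher and 5.5% lower in KO, which became 3.46% and 3.65% with the alike WT libraries A3 and D4 averaged into 1 (an alternative added after seeing the data). Of the 12 leading genes that were higher in untreated KO, 9 were also higher after 5-FU and 5 were called there: Slc25a29, Ifrd2, Fhl2, Pkm and Kpna2. With A3 and D4 averaged, 3 were called, namely Ifrd2, Pkm and Kpna2. Pkm was at 3352 to 4099.9 in WT and at 9685, 11458 and 13026 in KO after 5-FU (1.52, SE 0.14, adjusted p = 8.33e-06). Cdc20 and Bub1 were higher in KO after 5-FU without overlap but did not pass, with log2 differences of 0.59 (adjusted p = 0.0536) and 0.76 (adjusted p = 0.0592). WT cells after 5-FU held 3530.1 to 4908 Cdc20 counts, which overlaps the 3062 to 3999.8 of untreated KO cells.

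Of the 12 leading genes that were lower in untreated KO, 4 were lower after 5-FU, 0 were called lower and 2, Fbp1 and Gm16580, were called higher (Fbp1 alone with A3 and D4 averaged). After 5-FU, Fbp1 was at 206 in WT A2, at 1.33 to 4.35 in the other 3 WT libraries and at 501, 485 and 561 in KO (1.63, SE 0.32, adjusted p = 0.00322), the reverse of untreated cells. The interaction of genotype and 5-FU tests whether the 2 differences differ, and 2.84% of all tested genes passed it (1.84% with A3 and D4 averaged). Among the leading genes it passed for 3 of the 12 higher ones (Ribc1, Xlr3a and Pank1) and for 9 of the 12 lower ones (Nsun7, Edar, Nfat5, Fbp1, Gm16580, Zan, Gpt2, C1qc and Ahcyl1). With A3 and D4 averaged, Xlr3a, Nfat5 and Zan no longer passed, which left 2 and 7. The same untreated libraries that ranked these genes enter that test. Of the 151 mitosis genes, 15 were called higher and 1 lower in KO after 5-FU, and 1, Mad2l1bp, passed the interaction. These counts were 10, 0 and 0 with A3 and D4 averaged. Of the 60 licensing and fork genes, 27 were called higher after 5-FU with a median of 0.65, and 3 passed the interaction (14 and 1 with A3 and D4 averaged). Of the 15 megakaryocyte and platelet genes, 11 were called lower after 5-FU with a median of -1.20, and 9 passed the interaction (11 and 7 with A3 and D4 averaged).

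**Figure D5:**
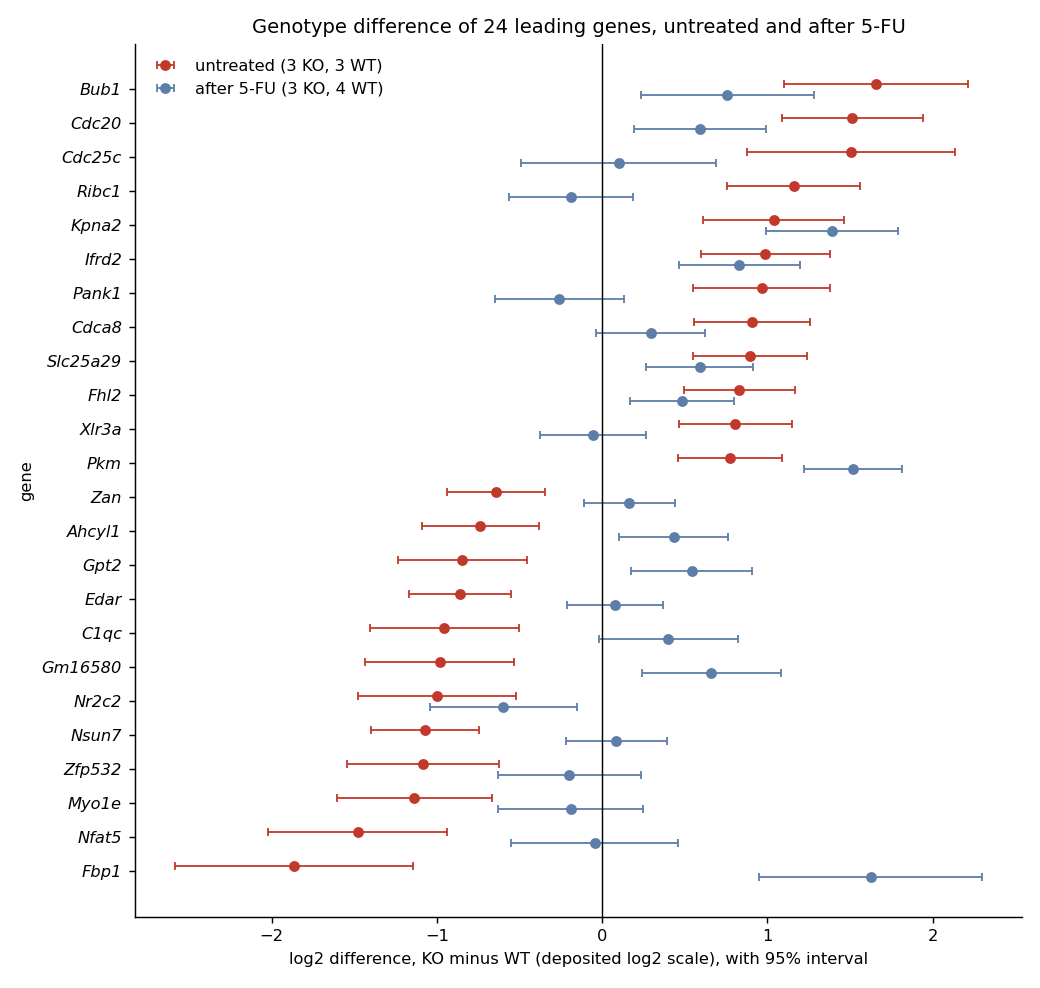
Log2 difference (KO minus WT) of the 24 leading genes, untreated (red) and after 5-FU (blue), with 95% intervals. Most of the 12 genes that are higher in untreated KO stay to the right of 0 after 5-FU, whereas 8 of the 12 lower ones lie to the right of 0, with Fbp1 at 1.63.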

How the data were processed

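Values were the authors' deposited table of log2-scale, variance-stabilized expression for 13 libraries (13201 genes). Per the submitters' processing notes, Trimmomatic, Bowtie 1.1.1, the mm10 genome and DESeq2 were used. How reads were counted, on which strand and with which annotation, is not given in the sources used here. The transformation was inverted (value at 0: 7.6484), which returned whole reads for every gene within 0.1, so depth and normalized counts are known. The counts of WT D1 carried an added constant of 2, the others 1.

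Genotypes were compared with limma 3.58.1 (R 4.3.3) on the deposited log2 values, with 1 mean per group over all 13 libraries, a variance trend, and Benjamini-Hochberg adjustment at 0.05 over the 12846 genes that reached 10 normalized counts in 3 or more libraries. All 4 groups share 1 spread. Estimated library weights, lower for noisier libraries, were 0.437 to 0.803 for the untreated libraries. They were 3.77 and 4.59 for the alike 5-FU WT libraries A3 and D4, and 0.399 to 3.03 for the other 5-FU libraries. The shared spread can therefore understate that of untreated cells, and with it the SEs and adjusted p-values. Fitted with these weights, Cdc20, Bub1 and Nsun7 passed and Ribc1 did not. No library was dropped. In simulated data, 15 of 100 genes changed 2-fold and 49 of 100 changed 4-fold were recovered, with 8 false calls among 72. That false share is above the 0.05 aimed at. The simulation gave each gene 1 spread, averaged over the 4 groups, and changed only genes with a mean of at least 50. Since the untreated libraries had low weights, the recovery need not hold for untreated cells.

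Named genes are Map2k1, called genes and their relatives, the 12 per direction with the smallest p (group mean of at least 50, no overlap), and up to 6 or 3 members per list with the smallest p. Members and lists were chosen with earlier results of these data known. Gene models are GENCODE on GRCm38 and promoters RefSeq. Alternatives were other scales, filters, normalizations, weights, tests and left-out libraries. Some single-gene results are not reported here.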

Additional observations from a re-analysis of the deposited data

Results flagged for a closer look

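The genotype difference of 12 leading genes differed between untreated and 5-FU cells by the interaction test (limma, adjusted p below 0.05). Of all tested genes, 2.84% passed it. The leading genes were ranked by the untreated difference that this test subtracts. That choice favours passing, so the p-values below are no independent result. The value given is the difference after 5-FU minus that in untreated cells on the log2 scale. It was -1.35 for Ribc1 (adjusted p = 0.012), -0.86 for Xlr3a (adjusted p = 0.0474) and -1.22 for Pank1 (adjusted p = 0.0227), which were among the leading genes on the higher side in untreated cells. It was 1.16 for Nsun7 (adjusted p = 0.00945), 0.94 for Edar (adjusted p = 0.0194), 1.44 for Nfat5 (adjusted p = 0.0365), 1.64 for Gm16580 (adjusted p = 0.00871) and 0.81 for Zan (adjusted p = 0.0311). It was 1.39 for Gpt2 (adjusted p = 0.00945), 1.36 for C1qc (adjusted p = 0.0197) and 1.17 for Ahcyl1 (adjusted p = 0.0127). The widest of the 12 was 3.49 for Fbp1 (adjusted p = 0.0012), which was negative in untreated cells and positive after 5-FU. With the alike WT libraries A3 and D4 averaged, Xlr3a (adjusted p = 0.0834), Nfat5 (adjusted p = 0.0707) and Zan (adjusted p = 0.061) no longer passed.

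In the 4 WT libraries after 5-FU, 3 of 25 genes had 1 library far from the other 3 by Dixon's criterion, which chance gives in about 1 of 20 groups. Fbp1 was at 206 in A2, Gpt2 at 20.8 in A2 and Zan at 0.664 in D4, the last being 1 read against 3 libraries at 0, where the criterion is met by construction.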

How the results depend on the processing

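The 4 genes called in untreated cells became 0 with the 6 untreated libraries alone (880 at an unadjusted p below 0.05) and 0 by limma-voom on recovered reads (1801). The count was 2 with A3 and D4 averaged, 2 with a minimum count of 50, 2 with acquisition year as a term, 9 on log2(normalized count + 1) and 17 at an adjusted p of 0.1. Leaving out 1 library gave 1 to 25 genes. The 25 came without WT D2 and the 7 without WT D1, whereas 1 gene was left without KO D5 and 1 without KO D6. Of the 5-FU libraries, A5, A8, A3, A4 and D4 each left 2 genes when omitted. The cause was not tested. The 24 leading genes kept their direction in the 18 settings, except that Xlr3a and Zan were not tested at the minimum count of 50. This was largely fixed beforehand, since these genes were chosen for no overlap between the genotypes. Leaving out a library could then hardly reverse them. Settings that changed only the spread or the filter left the difference itself as it was. The median of the mitosis lists was 0.61 on log2(normalized count + 1), and their count at an unadjusted p below 0.05 ran from 27 (without WT D3) to 62 (without WT D1). The median of adhesion and homing genes turned from -0.06 to 0.0663 by limma-voom. It ran from -0.0291 to 0.0473 over left-out libraries (0.0244 without KO D5, 0.0293 without KO D6, 0.00225 without WT D2). That of mitochondrial carriers, 0.08, ran from -0.00169 without WT D1 to 0.14. Of 648 list medians under alternatives, 607 moved by less than the spread between libraries. The 607 include settings that cannot move an untreated median, so their share overstates stability. Such settings are the 6 untreated libraries alone, A3 and D4 averaged, robust variances and acquisition year as a term. No paired analysis was possible because the untreated groups carry different library numbers (D1 to D3 and D4 to D6). With 3 libraries a group, few 2-fold changes were called in the simulated data. The simulated spread was averaged over the 4 groups, so the share recovered in untreated cells can differ.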

Other observations

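The largest log2 difference in untreated cells belonged to Gm13456, singled out after its values were seen. WT D1 to D3 held 5013, 9767 and 22.2 counts and the KO libraries 35.9, 18.0 and 7.40, with overlapping groups (-3.18, SE 1.11, adjusted p = 0.336 by limma). After 5-FU it was at 6.72, 18.9 and 6085 in KO A5, A6 and A8 and at 9.26 to 83.0 in WT, so 3 of 13 libraries were high across genotypes and treatments.

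Genes near Map2k1 were counted after the data had been seen. Of 146 other tested genes within 10 Mb of it on chromosome 9, 0 were called by limma, and 8.22% had an unadjusted p below 0.05, against 11.2% of 555 genes on the rest of that chromosome and 10.05% of all genes. Pkm, Myo1e, Ccnb2 and Rab8b had the smallest p among them.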
